A study of Mus musculus with 98 samples.

Results

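The 7 genes described here, Sox10, Foxd3, Ngfr, Erbb3, Fabp7, Nkain4 and Elavl3, are genes of the neural crest, of the glia that descend from it, and of neurons. They were taken by name from a list, and all 7 were found among the 22231 genes of the age series and the 20760 genes of the newborn series, the 2 single-cell count tables of a study of the mouse thymus stroma, the nonepithelial part of which is called NETS. The age series held live Ter119-CD45-EpCAM- cells of wild-type mice in 8 libraries: the embryonic days E12.5 and E13.5 have a single library apiece, while E16.5, birth (P0) and 4 weeks have 2. The newborn series held Ter119-CD45- cells of P0 thymi, sorted and then fixed for storage, in 3 libraries of Tbx1+/-Crkl+/- mice, which carry a heterozygous loss of Tbx1 and Crkl, and 3 wild-type libraries. Bulk RNA was measured in 84 libraries, 6 a group, of live CD45- populations sorted from wild-type thymi at P0 and 4 weeks. The authors' cell labels were used throughout, and the cells labelled NC in the tables are called neural crest-derived cells (NCC).

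Neural crest cells leave the dorsal neural tube, migrate through the embryo and give rise to peripheral neurons, Schwann cells and other glia, pigment cells and part of the mesenchyme of the head, neck and thymus. Sox10 and Foxd3 encode transcription factors that specify crest cells and are kept in their glial descendants, whereas Erbb3 and Ngfr encode surface receptors: ErbB3 binds neuregulins, the growth factors on which Schwann cell precursors depend, and Ngfr (p75NTR) binds neurotrophins. Fabp7 encodes the brain lipid-binding protein of radial glia and immature Schwann cells, Nkain4 a small membrane protein that interacts with the sodium pump, and Elavl3 an RNA-binding protein of differentiating neurons (HuC).

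In the mm10/GRCm38 build, Sox10 lies on chromosome 15 (79154908 to 79165240, minus strand) and Foxd3 on chromosome 4 (99656299 to 99658622, plus strand), where the annotation also places the microRNA gene Gm23366. Ngfr lies on chromosome 11 (95568818 to 95587735, minus strand), Erbb3 on chromosome 10 (128567523 to 128589652, minus strand, with the microRNA gene Mir6917) and Fabp7 on chromosome 10 (57784881 to 57788450, plus strand). Nkain4 lies on chromosome 2 (180934772 to 180954699, minus strand) and overlaps the antisense gene Gm14341, and Elavl3 lies on chromosome 9 (22015005 to 22052023, minus strand), where it overlaps the protein-coding gene Gm49318 of the same strand, so that reads in the overlap could be split between them or dropped. The promoters of the factor whose NCC level did not pass the test over age, of the lipid-binding protein that fell with age and of the receptor whose NCC level was higher after E13.5 are shown as 200 bases from RefSeq, 250 to 51 bases before the start in RefSeq, 5′ to 3′ on the gene's strand and in GRCm38.p6. For Fabp7 and Ngfr that start differs from the one given above, and the stretches lie nearer to the latter. Capitals mark the GC box GGGCGG or the CCAAT box, which reads ATTGG where it lies on the opposite strand.

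Foxd3 (chr4:99656049-99656248, plus strand): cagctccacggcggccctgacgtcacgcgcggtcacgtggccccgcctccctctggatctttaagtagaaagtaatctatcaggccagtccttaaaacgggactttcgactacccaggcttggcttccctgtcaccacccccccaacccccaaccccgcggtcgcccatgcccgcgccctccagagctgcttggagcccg

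Fabp7 (chr10:57784673-57784872, plus strand): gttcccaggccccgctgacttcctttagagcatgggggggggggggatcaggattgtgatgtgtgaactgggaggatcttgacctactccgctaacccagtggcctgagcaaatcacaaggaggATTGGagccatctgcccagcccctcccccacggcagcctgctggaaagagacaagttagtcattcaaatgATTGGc

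Ngfr (chr11:95587749-95587948, minus strand): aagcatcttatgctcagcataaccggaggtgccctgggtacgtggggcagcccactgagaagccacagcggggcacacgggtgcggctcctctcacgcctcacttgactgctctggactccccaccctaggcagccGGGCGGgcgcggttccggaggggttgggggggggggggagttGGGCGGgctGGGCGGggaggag

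Entries were found for 4 of the 7 genes. The Ngfr stretch had a GC content of 70% and 3 GC boxes, and the Fabp7 stretch had a GC content of 57% and 2 CCAAT boxes on the opposite strand. The Foxd3 stretch, at 64.5%, held none of the 5 motifs searched on both strands, which were also ACAAAG and ACAATG (recognised by SOX factors) and TATAAA. Of 32851 promoters cut the same way, 24.6% held GGGCGG, 28.4% CCAAT, 13.6% ACAAAG, 8.94% ACAATG and 9.14% TATAAA. No ACAAAG or ACAATG was found in these 3 stretches or in that of Elavl3.

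The age series comprised 36208 cells with 19 labels and 28583048 to 93040640 unique molecular identifiers (UMIs) a library, and the newborn series 21451 cells with 29 labels and 4978011 to 31418527 UMIs. The median cell had 10005 to 14031 UMIs in the age libraries and 2391 to 4686 in the newborn ones, so a low level is harder to see in the latter. Pairs of libraries shared at most 14 and 5 cell barcodes. Levels are given in CPM, which scales the summed counts of the cells in question, or of a sorted library, to the same total. Crkl was not lower in the heterozygous libraries (24.1, 23.6 and 26.9 CPM, against 23.0, 25.1 and 18.4 in wild type), while Tbx1 was at 0, 0 and 0.87 CPM against 1.79, 0.44 and 0.60 (0 to 19 UMIs a library), so both genes overlapped between the genotypes and do not check the labels. Among the sorted libraries, which had 5785352 to 15852166 reads in genes, 1 gp38+CD26+ library at 4 weeks (replicate 2) stood apart with 25702, and its epithelial marker sum of 19337 CPM compared with 120 to 262 in the other 5. Per the study's text, thymi of more than 1 litter were pooled for E12.5 and for E13.5, 2 thymi gave the cells of each later age, and the newborn series compared 3 heterozygous animals with 3 wild-type littermates. The labels tie no library to an animal, and for the sorted populations neither source used here says whether libraries came from separate mice, so p-values there measure the spread between libraries. The titles of the sorted libraries carry the prefix TXCK or DFCK, which the labels do not explain, and each group holds libraries of both. The titles also number the sorted libraries in the same steps in each population of an age. Libraries of different populations could therefore share thymi, and the tests between populations were fitted without pairing.

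Sox10, Foxd3, Erbb3 and Fabp7 had their highest level in NCC in all 8 age libraries. Levels in CPM were formed for labels with at least 5 cells in a library, and since UMIs of this 3′ assay were not divided by a length they are compared between cells and not between genes. NCC numbered 259 at E12.5 and 293 at E13.5, or 13.0% (95% exact interval 11.5 to 14.5) and 5.21% (4.65 to 5.83) of cells, and 10, 10, 39, 25, 7 and 7 in the E16.5, P0 and 4-week libraries, 0.152% to 0.832% of cells. Of 30 glial genes taken as a list, 26 were highest in NCC in the newborn series, as its label says. The labels were made from the same counts, so no test was made between labels.

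Sox10 reached 239.5 ± 103.5 CPM in NCC (SD, n = 8 libraries), against 7.14 ± 17.8 in the next label, a medullary fibroblast cluster (MedFb2a). Foxd3 reached 570 ± 186 CPM in NCC and 32.7 ± 85.9 in MedFb2a, which was again next. Erbb3 followed the same order, with 176 ± 31.5 CPM in NCC and 5.78 ± 14.5 in MedFb2a. At E12.5 Foxd3 was at 245 CPM in the 18 MedFb2a cells against 868 in NCC, and at 4 weeks Sox10 and Foxd3 had 0 UMIs in all 18 other labels. Fabp7 was less restricted. Its mean in NCC was 1776 ± 1806 CPM, and it also reached 255 ± 617 in MedFb2a, 137.1 ± 320 in MedFb1a and 121 ± 195 in proliferating cells (Pr). The MedFb2a mean rests largely on the 18 cells of E12.5, at 1769 CPM. At E12.5, 6 of these 18 cells, 15 of 71 MedFb1a and 65 of 373 Pr held at least 2 of Sox10, Foxd3 and Erbb3.

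At E16.5 and P0 the labels next to NCC for Fabp7 were mural cells, the cells that wrap vessels. In vascular smooth muscle (VSM) the Fabp7 level was 6.6 CPM at E12.5, 7.3 at E13.5, 130.1 and 159.8 at E16.5, 40.0 and 63.2 at P0, and 0.5 and 3.2 at 4 weeks. Pericytes (Pc) gave 9.3 and 7.6 at E12.5 and E13.5, then 67.4, 74.7, 74.1 and 66.8 through P0, and 9.3 and 6.0 at 4 weeks. Mural Fabp7 was thus highest at E16.5 and P0, when NCC had less of it than at E13.5. A Fabp7 UMI was found in 31.2% and 29.5% of pericytes at E16.5 and in 4.32% and 2.98% at 4 weeks, and after thinning each cell to 2000 UMIs in 10.98% and 11.9% against 1.84% and 0.299%. Capillary endothelium (EnC), taken as a label without the gene, gave 2.17% and 2.20% at E16.5 and 0 of 246 and 0 of 275 cells at 4 weeks, at a median of 14419.5 and 14059 against 10709 and 10687.5 UMIs in pericytes at E16.5.

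Ngfr had its highest level in NCC in 6 of 8 libraries. It averaged 135.3 ± 97.6 CPM there and 38.5 ± 20.6 in the medullary fibroblasts MedFb1b. The exceptions were E12.5, with 38.1 CPM in NCC and 47.1 in MedFb1b, and 4 weeks replicate 1, with 43.003 and 47.0, so in these libraries NCC and MedFb1b differed by little. In MedFb1a the Ngfr level was 13.6 and 7.3 CPM in the E12.5 and E13.5 libraries, 17.9 and 20.3 at E16.5, 53.6 and 49.7 at P0, and 41.7 and 59.8 at 4 weeks. All P0 and 4-week libraries lay above the embryonic ones in MedFb1a, but not in every fibroblast label. MedFb1b was at 47.1 and 11.98 CPM in the E12.5 and E13.5 libraries, 19.6 and 20.4 at E16.5, 75.7 and 45.9 at P0, and 47.0 and 40.7 at 4 weeks. CapFb2a was highest at E16.5, with 31.8 and 46.7 CPM against 9.60 and 12.1 at 4 weeks.

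For Nkain4 and Elavl3 NCC did not have the highest mean over libraries. Nkain4 was highest in NCC at E12.5, E13.5 and E16.5 replicate 1, and in mesothelium (Mes), the lining of the organ's surface, in the other 5 libraries. Its mesothelial level was 162 and 130 CPM at E12.5 and E13.5, 479 in E16.5 replicate 2 (5 cells), 906 and 682 at P0, and 1615 and 1749 at 4 weeks, a mean of 817 ± 651 (n = 7). The lowest mesothelial levels were those of the embryo and the highest those of 4 weeks, whereas NCC held 250.045 ± 124.3 CPM (n = 8), with 64.5 and 206 at 4 weeks. Elavl3 was low in every label, with means of 4.13 CPM in capsular fibroblasts CapFb4, 3.88 in pericytes and 3.86 in NCC (n = 8 each). With UMIs pooled over libraries, with at least 20 cells of a label in a library, or by the share of cells after thinning, NCC came first instead. At E13.5 NCC had 16.1 CPM (95% exact Poisson interval 11.4 to 21.96, for counting error only), CapFb4 16.8 (8.04 to 30.8) and MedFb2a 14.6 (10.4 to 20.1), with overlapping intervals, and 17 of 17 other labels had Elavl3 UMIs. At E13.5 an Elavl3 UMI was found in 11.6% of NCC and 8.96% of EnC (medians of 7846 and 15470 UMIs). After thinning to 2000 UMIs a cell the shares were 4.44% and 1.46%, and at E12.5 they were 2.32% and 0%.

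**Figure D1:**
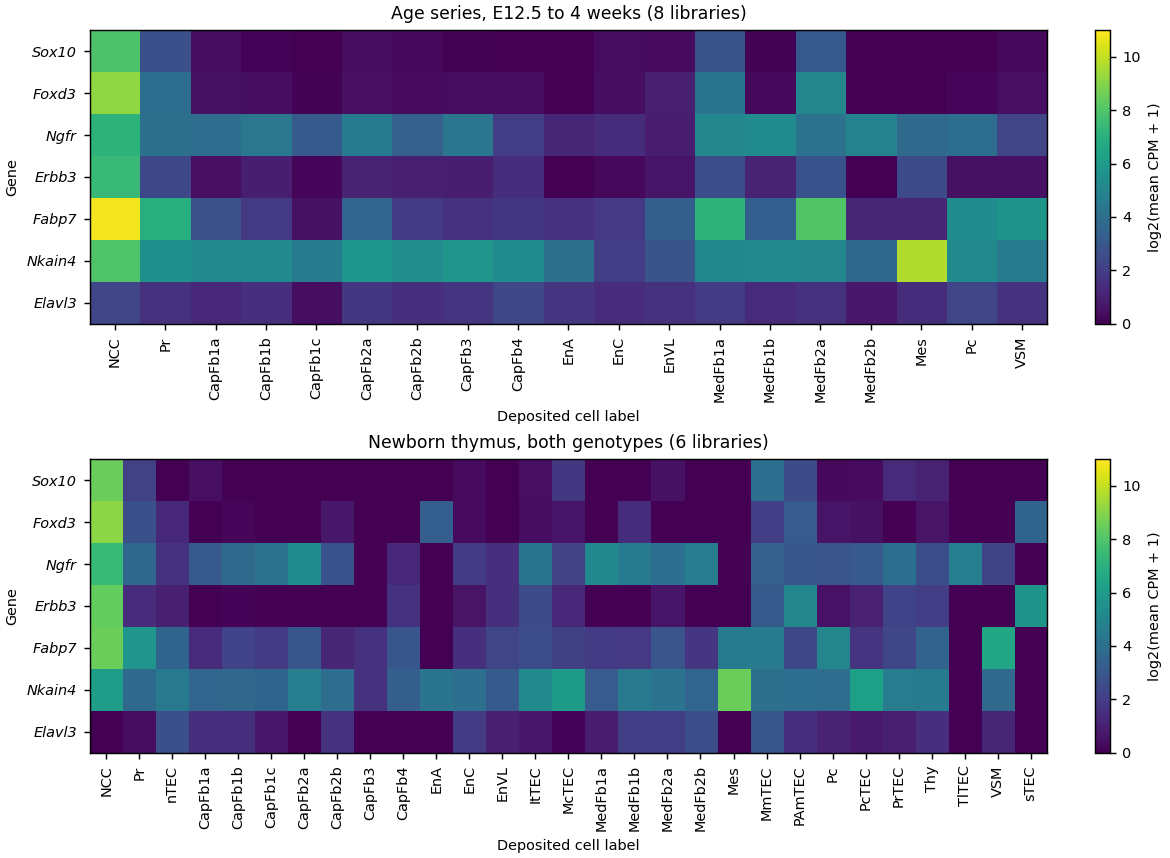
Level of each of the 7 genes (rows) in each label (columns) as colour, log2(mean CPM + 1) over the libraries with at least 5 cells of the label, in the age series and in the newborn series. In the age series NCC have the brightest fields for Sox10, Foxd3, Erbb3, Fabp7 and Ngfr, with Sox10 at 239.5 CPM against 7.14 in the next label, while mesothelium leads for Nkain4.

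Over the sums of the 19 labels in the 8 libraries, leaving out 3 with fewer than 5 cells, the log2(CPM + 1) of Sox10 and of Foxd3 had a Pearson correlation of 0.981, and that of Sox10 and Erbb3 was 0.911. Sox10 had lower values with Fabp7 (0.763), Nkain4 (0.410), Ngfr (0.404) and Elavl3 (0.155). These points share libraries, depth and labels made from the same counts, so the values are descriptions. Among all genes with at least 100 UMIs, the 5 nearest Sox10 were Foxd3, Gm12688 (0.969), a noncoding RNA gene beside Foxd3, Tmprss5 (0.961), Gfra3 (0.956), which encodes the artemin receptor, and Cmtm5 (0.945). The 5 nearest Foxd3 were Sox10, Gm12688 (0.956), Cmtm5 (0.941), Gfra3 (0.940) and Tmprss5 (0.931).

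Among the 5 nearest Erbb3 were Sox10, Foxd3 (0.907), Gm12688 (0.894) and Tmprss5 (0.883). Fabp7 was nearest to Foxd3 (0.788), Luzp2 (0.784), Ptprz1 (0.774), the progenitor factor gene Sox2 (0.766) and Itga4 (0.765). For Elavl3 they were the neurofilament genes Nefl (0.848), Ina (0.848) and Nefm (0.839), then Pcsk1n (0.831) and the sensory neuron factor gene Tlx3 (0.801). These are genes of neurons, and none of the other 6 members was among them. Ngfr had no close neighbour among the crest genes: Lmo4 (0.744), Arhgef19 (0.727), Col27a1 (0.722) and Matn2 (0.721) were among the 5 nearest. Nkain4 was nearest to Efna2 (0.751), Acot1 (0.746), Flrt1 (0.725), Ldhb (0.723) and Echs1 (0.711).

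In single cells, 538 of 650 NCC held a Sox10 UMI, 607 a Foxd3, 517 an Erbb3, 630 a Fabp7, 572 an Nkain4, 171 an Ngfr and 69 an Elavl3 UMI. Elavl3 and Ngfr were seldom found in the same cell. Of the 171 cells with Ngfr, 3 had Elavl3 (1.75%), against 66 of the 479 without Ngfr (13.8%). All 69 cells with Elavl3 came from the E12.5 and E13.5 libraries, in which the Ngfr level was low, so age moves with this split.

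Cells with crest genes also lay outside the NCC label, almost all of them before E16.5. Counting cells with at least 2 of Sox10, Foxd3 and Erbb3, a rule set after the data were seen, gave 603 of 650 NCC (92.8%, 95% exact interval 90.5 to 94.6) and 183 of 35558 other cells (0.515%). Of the latter, 181 were among 7065 cells at E12.5 and E13.5 (2.56%) and 2 among 28493 later cells (0.00702%). Pr held the largest number, 65 of 373 cells at E12.5 (17.4%, 13.7 to 21.7) and 53 of 1301 at E13.5 (4.07%, 3.07 to 5.29). MedFb1a held 15 of 71 (21.1%) and 20 of 682 (2.93%), and MedFb2a 6 of 18 (33.3%) and 10 of 206 (4.85%). In EnC, which should lack these genes, the counts were 0 of 91 and 2 of 413 at a median depth of 19094 and 15470 UMIs in the cells that did not meet the rule, so the shares in Pr and MedFb1a at E12.5 exceeded that background.

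These Pr cells differed from the other Pr cells in genes that the rule did not use. At E12.5 they held 4003 CPM of Fabp7 against 6.85 in the other Pr cells. The collagen genes Col1a1 and Col3a1 were at 8.8 against 636 and 27.5 against 1060. Mki67, a proliferation marker, was at 229 CPM against 336, and at 19.8 in NCC with at least 2 crest genes. At E12.5 some cells with a crest profile and Mki67 were thus labelled Pr. The label was made from the same counts, and NCC held some Mki67 too. At E13.5 Fabp7 was at 4897 against 43.9 CPM and Col3a1 at 886 against 2761. Such cells had no deeper counts than the others (medians 14238 against 17613.5 UMIs at E12.5), and after thinning to 2000 UMIs 7.30% and 0.923% of Pr still met the rule.

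**Figure D2:**
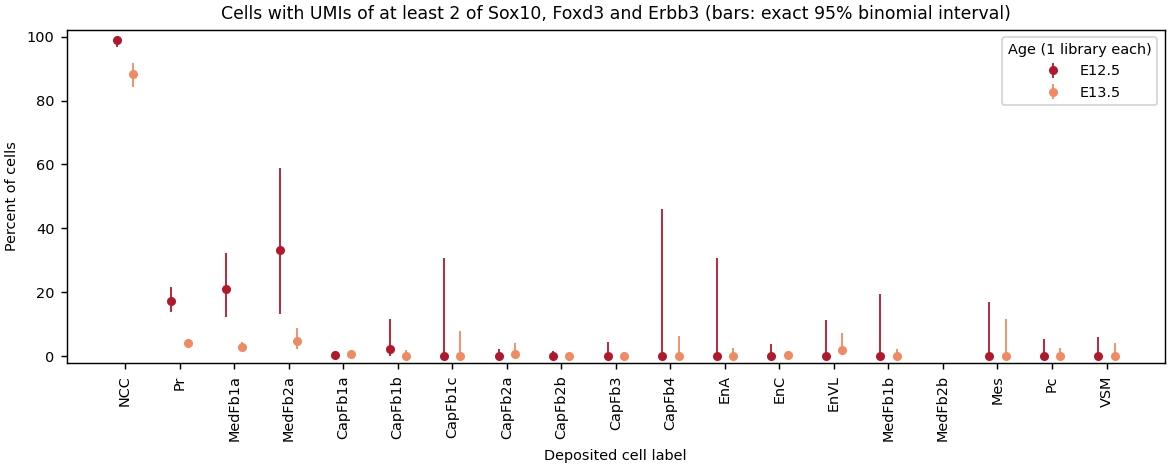
Share of cells with UMIs of at least 2 of Sox10, Foxd3 and Erbb3, in percent, in each label with at least 5 cells of the E12.5 library and of the E13.5 library, with 95% exact binomial intervals as bars. NCC stand highest, followed at E12.5 by MedFb2a (33.3%), MedFb1a (21.1%) and Pr (17.4%), while no other label but NCC is above 4.85% at E13.5.

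Within NCC, Sox10, Foxd3 and Erbb3 did not pass the test over age and Fabp7 fell. The Sox10 level was 291 CPM at E12.5, 188 at E13.5, 130 and 287 at E16.5, 189.7 and 161.1 at P0, and 215 and 454 at 4 weeks. Its highest and lowest values were thus both later than E13.5, and E16.5, P0 and 4 weeks together differed from E12.5 and E13.5 by a log2 fold change of -0.12 ± 0.27 (SE, edgeR adjusted p = 0.826). Erbb3 was at 203 and 177 CPM in the early libraries and 143.5, 134.1, 145.2, 181.3, 215 and 206 in the later ones (log2 fold change -0.21 ± 0.23, adjusted p = 0.602). Foxd3 was at 868 and 594 CPM early, and later at 567, 766, 414, 494, 279 and 578. Its later libraries overlapped the early ones (log2 fold change -0.59 ± 0.23, adjusted p = 0.0858), and the call changed with the setting: adjusted p was 0.0325 with no filter on low counts, 0.0485 with only libraries of at least 20 NCC, and 0.0416 without 4 weeks replicate 2.

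Fabp7 was at 2972 and 5400 CPM in NCC in the E12.5 and E13.5 libraries, 1257 and 2682 at E16.5, 590 and 931 at P0, and 129 and 248 at 4 weeks. Each later library was below both early ones, and each age was below the age before it from E13.5 on. The fall was 2.70 on the log2 scale with an SE of 0.25 (edgeR adjusted p = 1.46e-07, and 5.10e-07 over all 5 ages), and Fabp7 was the 1 of these 4 genes that was called. Over all genes tested in NCC, 16.4% were called over age and 19.5% between later and early libraries. Per cell, a Fabp7 UMI was found in 100% of NCC at E12.5, 99.0% at E13.5 and 42.9% at 4 weeks (3 of 7 cells in each library), with median depths of 11249, 7846, 5192 and 3333 UMIs. After thinning to 2000 UMIs the shares were 93.4% and 96.2% against 28.6% and 42.9%, and no EnC at 4 weeks held one.

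Ngfr, Nkain4 and Elavl3 are named by the study for their course with age in NCC, and their levels are given with no test. Ngfr was at 38.1 and 38.7 CPM in the E12.5 and E13.5 libraries, 191.3 and 124.5 at E16.5, 215 and 307 at P0, and 43.003 and 123.9 at 4 weeks (2 and 3 UMIs). All 6 later libraries lay above both early ones. Nkain4 was at 299 and 368 CPM early, 239 and 450 at E16.5, 126 and 247 at P0, and 64.5 and 206 at 4 weeks, so that E16.5 overlapped the early libraries and the P0 and 4-week libraries lay below them. Elavl3 was at 14.8 and 16.1 CPM (46 and 39 UMIs) in the early libraries and at 0 of 947130 UMIs in the 98 later cells, which allows a level of up to 3.17 CPM.

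**Figure D3:**
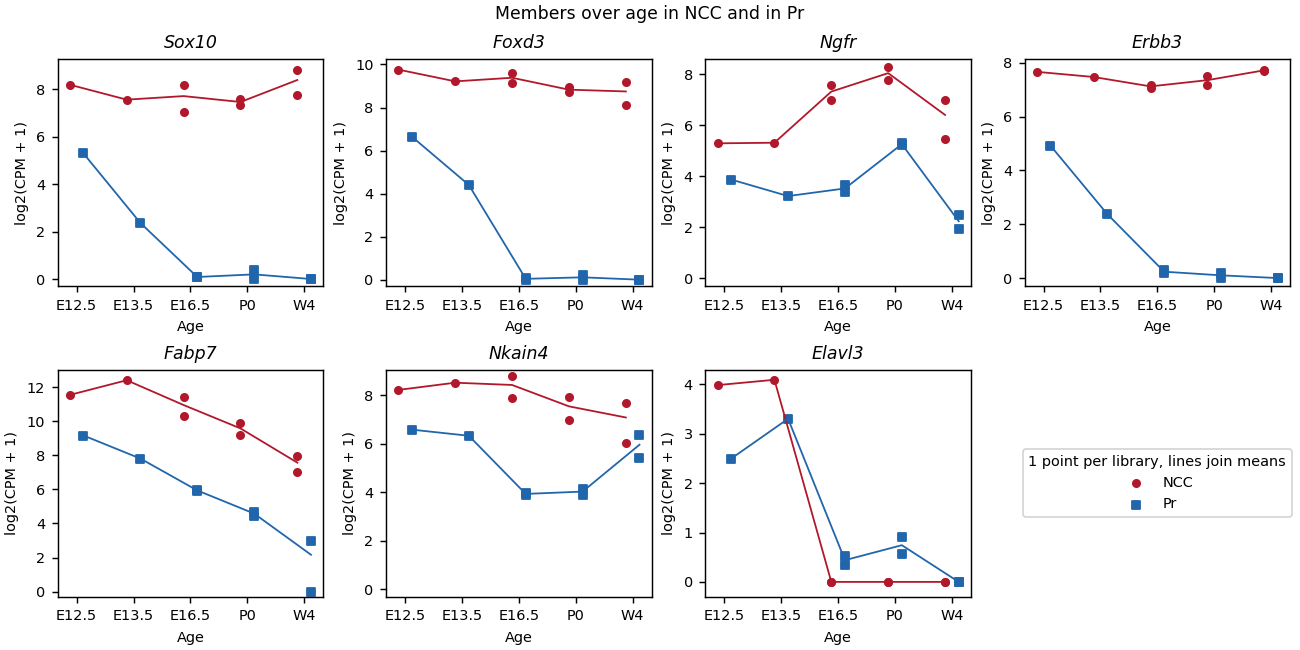
Level of the 7 genes, as log2(CPM + 1), against age in NCC and in Pr, with 1 point a library and lines joining the means of each age. In NCC Fabp7 runs from 5400 CPM at E13.5 to 129 and 248 at 4 weeks while Sox10 lies between 130 and 454, and in Pr Sox10, Foxd3 and Erbb3 are at or near 0 from E16.5 on.

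Genes of the same pathways were counted from lists, in later against early NCC, where the median gene tested had a log2 fold change of -0.13. Of all genes tested there, 19.5% were called, 516 as higher and 568 as lower, which is the share to set beside each count. A gene could pass the filter on low counts through the early or the later libraries alone, which fixes the direction of its call. The counts and medians of the lists below can include such genes. Of 30 glial genes 28 were tested, 17 were higher, 4 lower, and their median was 1.17. Among those with the highest NCC level, Apoe, the lipid carrier of glia, rose from 254 and 907 CPM to between 1210 and 8298 (log2 fold change 2.89 ± 0.28, edgeR adjusted p = 3.11e-07). The myelin gene Pmp22 rose from 135.1 and 223 CPM to between 752 and 3806 (3.06 ± 0.36, adjusted p = 3.74e-06). Dbi did not pass the test (0.05 ± 0.20, adjusted p = 0.915).

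Of 33 neuronal genes 8 were tested, 1 was higher and 5 lower. The 5 can include genes that passed the filter on low counts through the early libraries alone and so could only be called as lower. The 1 that rose was Gap43, a gene of growing axons that the glial list also holds (1.15 ± 0.35, edgeR adjusted p = 0.0241). Stmn2 was at 73.9 and 149.1 CPM early, at 0 in 4 of the 6 later libraries and at 4.68 in P0 replicate 1, while 4 weeks replicate 1 had the highest level of all, 172.01 CPM from 8 UMIs (-4.82 ± 0.77, adjusted p = 1.59e-04). Tubb3 was at 57.7 and 86.1 CPM early, 0 and 0 at E16.5, 14.05 and 20.1 at P0, and 107.5 and 330 at 4 weeks, from 5 and 8 UMIs (-3.22 ± 0.79, adjusted p = 0.00714). Both were called as lower although 1 and 2 of the 4-week libraries, of 7 cells each, lay above the early ones.

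Of 15 crest factors 7 were tested, of which Ets1 rose (1.73 ± 0.31, edgeR adjusted p = 3.99e-04) and Id3 was among 2 that fell (-1.14 ± 0.26, adjusted p = 0.00322). Zeb2 (0.39 ± 0.22) and Sox5 (-0.54 ± 0.38) did not pass the test. Among the partners of ErbB3 and their ligands, 1 of 13 was tested, the growth factor gene Hbegf, which was at 90.9 and 76.6 CPM early and between 171 and 279 later (1.45 ± 0.25, adjusted p = 3.39e-04). Erbb2, the receptor with which ErbB3 pairs, was too low to test, at 35.5 and 34.6 CPM early and between 0 and 41.3 later. Of 15 neurotrophin pathway genes 7 were tested and 3 fell, with Bex3, whose product binds p75NTR, at -1.75 ± 0.29 (adjusted p = 2.07e-04) and Maged1 at -1.07 ± 0.27 (adjusted p = 0.00802). Neither Sort1, which encodes the p75NTR coreceptor sortilin, nor Sorcs2 passed the test (0.80 ± 0.40 and -0.04 ± 0.46).

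Of 3 other genes of fatty acid-binding proteins 2 passed the filter on low counts. Fabp5 was at 1004 and 656 CPM early and between 345 and 711 later (-0.71 ± 0.27, edgeR adjusted p = 0.0714). Fabp4, known from endothelium and fat, was at 0.968 and 6.18 CPM early and between 35.2 and 454 later. It passed the filter through the later libraries alone, which fixes the direction of a call, so its levels are given with no test. Of 9 sodium pump genes 4 were tested and 1 was called, as higher. Elavl1, the broadly expressed relative of Elavl3, was at -1.07 ± 0.31 (adjusted p = 0.0193). Of 8 cycling genes 7 were tested and 0 were called in this contrast.

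Markers of other cells moved with age in the same sums. The 6 fibroblast markers summed to 204 and 492 CPM in early NCC and 1217 to 10778 in later NCC, with Col1a1, Col3a1 and Dcn called higher and Pdpn lower. Hemoglobin genes summed to 5.48 and 7.42 early and 68.3 to 1899 later. Endothelial markers were at 15.1 to 28.0 CPM except at 4 weeks, at 860 and 123.9, where Pecam1 was at 344 CPM in replicate 1. Their part in the NCC results was not tested.

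**Figure D4:**
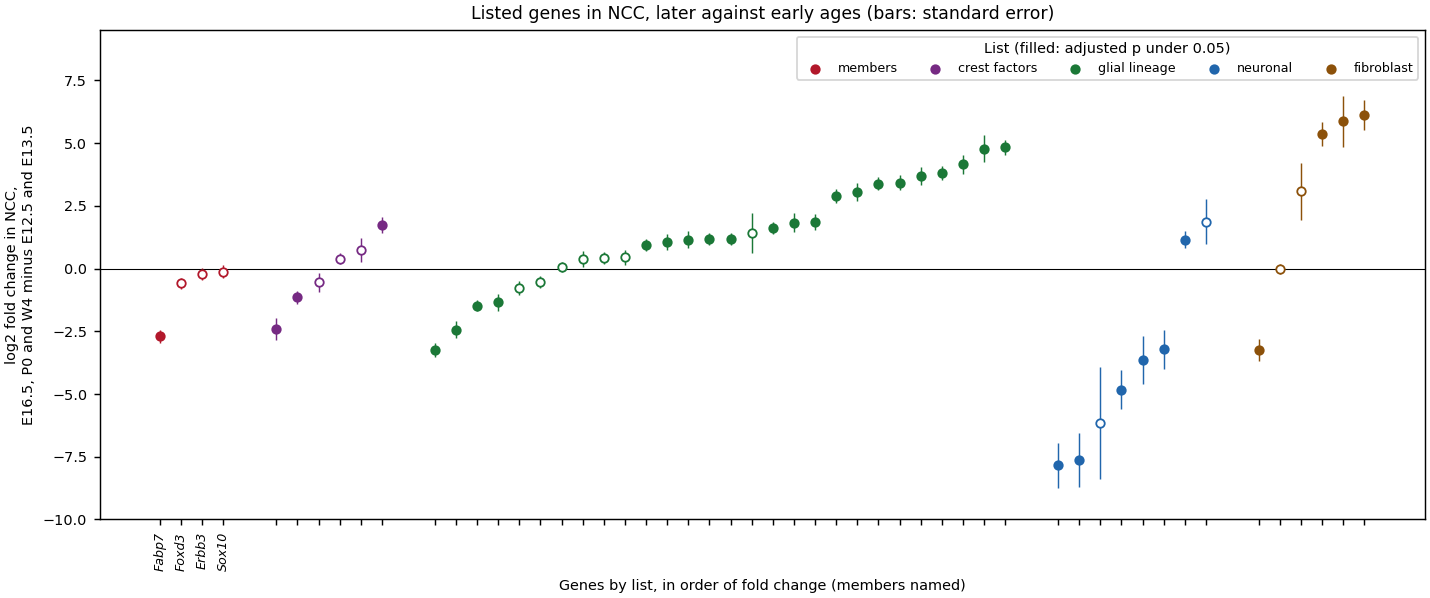
Log2 fold change with SE of single genes between later (E16.5, P0 and 4 weeks) and early (E12.5 and E13.5) NCC, for the crest factor, glial, neuronal and fibroblast lists and the members, leaving out genes with an SE of 3 or more; filled points have an adjusted p under 0.05. Of the members, the 4 that the study does not name for their age course are plotted, and Fabp7 at -2.70 lies below the other 3, while 17 of 28 glial genes lie above 0 and passed the test. The points can include genes that passed the filter on low counts through the early or the later libraries alone, which fixes their direction.

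In Pr 55.9% of all genes tested were called over age. Sox10 was at 38.2 CPM at E12.5 and 4.15 at E13.5, and between 0 and 0.29 in the 6 later libraries. Foxd3 was at 98.9 and 20.1 CPM and then between 0 and 0.16, and Erbb3 at 29.4 and 4.20 and then between 0 and 0.22. Elavl3 was at 4.64 and 8.87 CPM and between 0 and 0.87 later. These 4 genes passed the filter on low counts through E12.5 and E13.5 alone, which fixes the direction of a call, so their levels are given with no test.

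Fabp7 in Pr was at 570 and 223 CPM in the E12.5 and E13.5 libraries, 60.8 and 59.7 at E16.5, 20.9 and 24.9 at P0, and 0 and 6.95 at 4 weeks (edgeR adjusted p = 7.99e-07). Without the cells that met the crest rule, Fabp7 in Pr was at 6.85 CPM at E12.5 and 43.9 at E13.5, so that the highest values were then those of E16.5, and this order was not tested. Ngfr was highest at P0, with 38.4 and 35.99 CPM against 13.6 and 8.34 in the early libraries, 11.5 and 9.52 at E16.5, and 2.81 and 4.63 at 4 weeks (adjusted p = 2.04e-05). Nkain4 was at 95.4 and 79.9 CPM early, between 13.8 and 16.8 at E16.5 and P0, and at 81.6 and 41.7 at 4 weeks (adjusted p = 4.29e-06), with 29 Pr cells in each 4-week library.

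Over all cells of a library, 6 of 7 were called over age, where 76.1% of all genes were. In such sums fewer cells of a type and less RNA per cell cannot be told apart. Sox10 went from 41.5 CPM at E12.5 and 8.48 at E13.5 to between 0.282 and 1.44 later (edgeR adjusted p = 1.65e-04), Foxd3 from 120 and 28.4 to between 0.359 and 3.14 (adjusted p = 3.87e-05), and Fabp7 from 489 and 282 to 1.09 and 0.794 at 4 weeks (adjusted p = 7.36e-06). The share of NCC fell alongside, from 13.0% to between 0.152% and 0.832%. Nkain4 was the exception, at 109 CPM at E12.5 and 34.8 and 109 at 4 weeks (adjusted p = 0.219, and 0.0433 without P0 replicate 1), where the second 4-week library held 157 mesothelial cells and the first 32.

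In the newborn series the same 5 genes led in NCC, although it held only 67 NCC. Sox10 was at 544, 274 and 251 CPM in the 3 heterozygous libraries and 333, 304 and 421 in the wild type (6 to 13 UMIs each), a mean of 355 ± 110 (SD, n = 6) against 14.99 ± 15.4 in mature medullary epithelium (MmTEC), which was next. Foxd3 was at 538 ± 185.1 CPM and Erbb3 at 336 ± 73.8. Erbb3 also occurred in epithelial labels, at 50.9 ± 18.9 CPM in structural TEC (n = 3 libraries) and 31.9 ± 19.9 in post-AIRE medullary TEC. These labels held 6 to 9 and 9 to 55 cells in the libraries used, so few UMIs lie behind these levels. Ngfr was at 174.2 ± 111.8 CPM in NCC and 40.3 ± 28.0 in capsular fibroblasts CapFb2a, and Fabp7 at 367 ± 249 in NCC and 95.8 ± 54.7 in VSM. In heterozygous replicate 1 VSM was above NCC for Fabp7 (157 against 121 CPM, the latter from 2 UMIs), and its NCC held no Ngfr UMI, against 72.1 CPM in MedFb2b. With at least 20 cells of a label in a library, a minimum that NCC met in 1 library and mesothelium in none, VSM came first for Fabp7 and perinatal cortical TEC for Nkain4.

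Nkain4 was again led by mesothelium, at 368 ± 112.1 CPM in 3 libraries, with perinatal cortical TEC at 72.1 ± 12.1, NCC at 68.0 ± 50.2 and mature cortical TEC at 62.8 ± 18.3, which did not differ beyond their spread. Elavl3 had 0 of 158044 UMIs in newborn NCC, which allows up to 19.0 CPM. Its highest mean was in MmTEC, at 6.76 ± 11.6 CPM (n = 6), which rests on 4 UMIs and 29.8 CPM in heterozygous replicate 1. Without that library nTEC came first, with pooled UMIs structural TEC, with at least 20 cells of a label MedFb2b and after thinning the label Thy, so no label led in Elavl3 whatever the setting.

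The cells labelled neural TEC (nTEC) carried few transcripts of these genes other than Nkain4. Their 252 cells held 0 Sox10 UMIs of 805689 (up to 3.72 CPM), 3 of Foxd3, 4 of Ngfr, 2 of Erbb3, 7 of Fabp7, 1 of Elavl3 and 28 of Nkain4. At the depth of this series a cell without a UMI is not a cell without the transcript: a Sox10 UMI was found in only 26 of the 67 NCC. A list of 32 neuronal genes summed to 129 to 321 CPM in nTEC, 111 to 776 in NCC and 823 to 1087 in MmTEC, and no gene of that list had its highest level in nTEC. The glial list summed to 1002 to 1409 CPM in nTEC and 8557 to 19050 in NCC. Structural TEC had the highest median neuronal sum, 1197 CPM (561 to 2962 in 3 libraries). The neuronal range of nTEC lay within that of NCC, so this list does not decide whether nTEC have neuronal expression. The glial range of nTEC lay below that of NCC. Most nTEC came from heterozygous replicate 2, at a median of 2083.5 UMIs a cell.

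No member was called between Tbx1+/-Crkl+/- and wild-type libraries. Over all cells 0% of 15370 genes were called by edgeR (1014 at an unadjusted p under 0.05, and 19 by DESeq2). Fabp7 was at 9.44, 8.32 and 12.9 CPM in heterozygous and 12.4, 19.1 and 19.99 in wild-type libraries, which overlapped only at 12.4 and 12.9 (log2 fold change -0.84 ± 0.26, edgeR adjusted p = 0.701, unadjusted p = 0.00909). Ngfr was at 7.43, 6.18 and 8.82 against 11.2, 16.2 and 9.58 CPM, with each wild-type library above each heterozygous one (-0.78 ± 0.24, adjusted p = 0.701). Elavl3 was at 2.61, 0.78 and 3.16 against 1.24, 0.44 and 0.54 CPM (1.55 ± 0.61, adjusted p = 0.701). Sox10 (0.42 ± 0.56), Foxd3 (0.71 ± 0.45), Erbb3 (0.19 ± 0.46) and Nkain4 (-0.08 ± 0.24) were not called either, with unadjusted p of 0.147 or more.

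Within Pr, 0.0411% of 7298 genes were called (3 genes) and Fabp7 was the only member tested. It was at 36.7, 13.1 and 34.5 CPM in heterozygous and 56.3, 99.5 and 75.5 in wild-type libraries, which did not overlap (log2 fold change -1.64 ± 0.38, edgeR adjusted p = 0.0820). This value passed with no filter on low counts (adjusted p = 0.00662) and without wild-type replicate 1 (0.00438). Among the Pr cells 1 in each wild-type library met the crest rule and none in a heterozygous one, with median depths of the other Pr cells of 3653 to 7044 and 2535 to 2771 UMIs. No cell type marker was called in these sums, where the median log2 difference was 0.72 over 3 epithelial, 0.66 over 3 endothelial, -0.42 over 6 fibroblast and -0.45 over 8 cycling markers. The median of the mural markers is not given here, although mural cells came next to NCC in Fabp7. The study reports a lower relative number of Pc and VSM in the heterozygous mice. The part of these cells and markers in the Fabp7 difference was not tested. Within NCC, 0% of 263 genes were called by edgeR (10 at an unadjusted p under 0.05, and 0 by DESeq2), with Foxd3 the 1 member tested (0.25 ± 0.42, adjusted p = 0.970). In nTEC no member passed the filter on low counts, and 0% of 807 genes were called by edgeR (76 at an unadjusted p under 0.05, and 1 by DESeq2).

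The sorted populations hold no NCC gate, and Sox10 had 0 reads in every CD31+, Ly51+gp38-, gp38+CD26+, gp38+CD26- and cortical TEC (cTEC) library. Their defining markers were present: endothelial markers summed to 3607 to 7780 CPM in CD31+, mural markers to 31707 to 114773 in Ly51+gp38-, and fibroblast markers to 33805 to 76179 in gp38+CD26+ without the shallow library and 31187 to 45127 in gp38+CD26-. Between P0 and 4 weeks the share of genes called was 5.09% in CD31+, where no member passed the filter, 11.9% in Ly51+gp38-, 7.29% in gp38+CD26+, 24.3% in gp38+CD26-, 22.3% in cTEC and 5.99% in medullary TEC (mTEC).

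In the mural Ly51+gp38- population Fabp7 fell and Ngfr rose with age. Fabp7 was at 16.45, 10.2, 49.3, 30.5, 48.6 and 26.2 CPM at P0 and 10.3, 3.09, 3.77, 3.44, 5.77 and 0 at 4 weeks, where the highest 4-week library just exceeded the lowest of P0. The difference was -2.66 ± 0.81 on the log2 scale (edgeR adjusted p = 0.0479), and it was lost with no filter on low counts (0.0631) and with the title prefix of the libraries as a term (0.0535). Ngfr was at 18.3, 24.4, 12.3, 12.4, 12.3 and 23.4 CPM at P0 and 74.4, 31.2, 17.4, 103.8, 64.8 and 21.95 at 4 weeks, again with an overlap (1.72 ± 0.44, adjusted p = 0.0190). In these libraries the sum of cycling markers went from 811 to 1499 CPM at P0 to 232 to 456 at 4 weeks, and that of mural markers from 31707 to 42051 to 89697 to 114773. Epithelial markers summed to 10.2 to 203 CPM at P0 and 280.3 to 1329 at 4 weeks, with 3 of 4 tested called as higher, hematopoietic markers to 0 to 25.7 and 70.2 to 305, with 2 of 5 called as higher, and erythroid markers to at most 1.76 and 443, with none tested. The part of these changes in those of Fabp7 and Ngfr was not tested. The other members tested were not called, with Nkain4 at -2.25 ± 0.96 (adjusted p = 0.167) and Erbb3 at 0.54 (adjusted p = 0.904).

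In the gp38+CD26+ population, the capsular fibroblast gate, Nkain4 rose. It was at 9.21, 8.30, 2.91, 10.7, 13.4 and 29.95 CPM at P0 and 27.4, 117, 138, 240, 90.7 and 190 at 4 weeks, where only the first 4-week library fell within the P0 range (3.51 ± 0.58, edgeR adjusted p = 0.00181). The second value is that of the shallow library, and the call remained without it. Mesothelial markers moved with it: their sum was 1.84, 85.6, 0, 143.5, 30.3 and 386 CPM at P0 and 504, 1012, 4193, 5634, 1955 and 5345 at 4 weeks, in the same order of libraries. At 4 weeks the library with the least Nkain4 thus had the lowest mesothelial sum and that with the most Nkain4 the highest. Epithelial markers also rose, with 3 of 3 tested called, from 3.87 to 55.1 CPM at P0 to 120 to 262 at 4 weeks, and 19337 in the shallow library, as did 4 of 4 erythroid markers, from at most 2.95 to between 623 and 2505. The part of mesothelial, epithelial or erythroid RNA in the change of Nkain4 was not tested. Ngfr was not called there (-0.47, adjusted p = 0.863).

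In gp38+CD26-, the medullary fibroblast gate, Ngfr was at 105 ± 109 CPM at P0 and 161.1 ± 50.4 at 4 weeks (SD, n = 6, edgeR adjusted p = 0.409), and Nkain4 at 14.8 ± 5.67 and 5.02 ± 5.72 (adjusted p = 0.355). In cTEC Nkain4 was at 86.04 ± 32.7 and 96.3 ± 20.6 CPM (adjusted p = 0.569). In mTEC none of the 4 members tested was called, with Nkain4 at 9.13 CPM on average at P0 and 27.0 at 4 weeks (1.53 ± 0.56, adjusted p = 0.148), Erbb3 at 21.5 ± 10.5 and 27.6 ± 18.3, and Fabp7 at 7.48 ± 2.70 and 12.8 ± 10.6.

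Medullary TEC sorted as mTEChi and mTEClo differed in Nkain4, in a comparison in which 16.4% of genes were called. Nkain4 was at 7.32, 10.7, 6.37, 3.18, 4.14 and 3.04 CPM in mTEChi and 72.3, 95.9, 45.5, 36.5, 13.0 and 36.04 in mTEClo, with no overlap (-2.92 ± 0.50, edgeR adjusted p = 0.00105). Ngfr was at 22.03 ± 10.8 CPM in mTEChi and 77.7 ± 52.8 in mTEClo (-1.62 ± 0.54, adjusted p = 0.0601, and 0.0059 by DESeq2). Fabp7 (9.79 ± 2.60 against 1.97 ± 1.80 CPM, adjusted p = 0.155), Erbb3 (23.3 ± 8.14 against 11.9 ± 11.9, adjusted p = 0.467) and Sox10 had higher means in mTEChi and were not called. Sox10 had reads in 6 of 6 mTEChi libraries, 369 in all and 4.83 ± 3.82 CPM, and 62 reads in 1 of 6 mTEClo libraries (2.33 ± 1.67, adjusted p = 0.418). Marker sums differed between these sorts too. Epithelial markers summed to 5312 to 6646 CPM in mTEChi and 8108 to 9300.1 in mTEClo, with 1 of 8 called as higher and 2 as lower in mTEChi, and mural markers to 1749.8 to 2230.2 and 2674 to 4531, with 2 of 6 called as lower. Erythroid markers summed to 138 to 895 CPM in mTEChi and 61.5 to 4554 in mTEClo, with 3 of 4 called as lower, and mesothelial markers to 456 to 642 and 580.5 to 1118, with 1 of 4 called in each direction. Their part in the difference of Nkain4 was not tested.

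**Figure D5:**
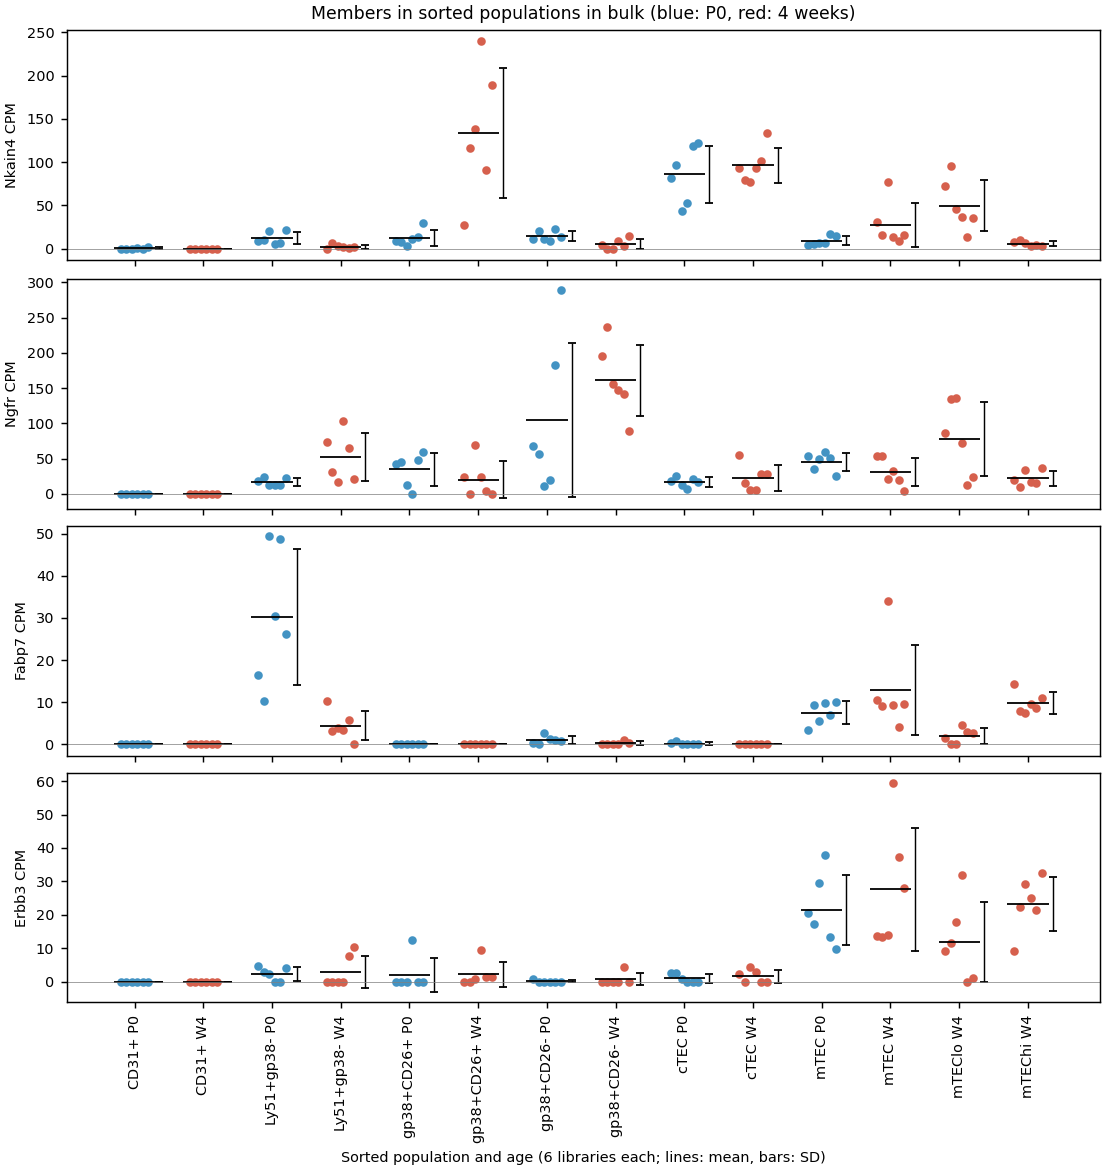
Levels (CPM) of Nkain4, Ngfr, Fabp7 and Erbb3 in each sorted population, with 1 point a library, P0 in blue and 4 weeks in red, the mean as a line and the SD as a bar. Nkain4 in gp38+CD26+ goes from 12.4 ± 9.26 to 133.8 ± 74.8 and Fabp7 in Ly51+gp38- from 30.2 ± 16.2 to 4.40 ± 3.44.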

How the data were processed

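The single-cell tables hold the counts of UMIs per gene and cell that the authors deposited with their cell labels, and the bulk table the authors' counts of reads per gene. Processing notes of the submitters list Cell Ranger 3.1.0, STAR 2.5.3a and HTSeq with the builds mm10 and GRCh38, and per the study's methods cells with few genes or much mitochondrial RNA, doublets and contaminating clusters were removed. The lowest cell had 999 to 1021 genes in the age libraries and 876 to 901 in the newborn ones. In bulk, 7.81% to 29.4% of reads were in no gene and were left out of library sizes.

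UMIs were summed per label and library, with at least 5 cells for a level and 20 for the test in Pr. Sums and bulk counts were tested with edgeR 4.0.16 (R 4.3.3) by quasi-likelihood F tests with TMM scaling, filterByExpr and Benjamini-Hochberg adjustment over all genes tested, at an adjusted p threshold of 0.05. The age fits hold 1 library at E12.5 and at E13.5, so the spread comes from the ages with 2. An SE is the log2 fold change divided by the root of F. DESeq2 1.42.0, RLE scaling, no filter, a replicate block, a title prefix term and leaving out libraries were alternatives. The fits were tested on simulated counts in which 200 genes changed 4-fold. Of these, 81% were called in later against early NCC, 79.5% over age in Pr and 91.5% between genotypes over all newborn cells. The share was 42% in CD31+ and 35% between mTEChi and mTEClo, so a gene not called in sorted populations may still differ. All these shares hold for 4-fold changes only. They do not cover smaller differences, such as those of Fabp7 and Ngfr between genotypes over all newborn cells. Positions are from GENCODE vM21.

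The 7 genes and all lists were chosen with earlier results of these data known. Of each list, the up to 4 genes with the highest mean in NCC were named, and for each gene the 5 with the highest correlation of log2(CPM + 1). Some genes that this rule names are not reported here. Thinning to 2000 UMIs kept 99.1% to 99.9% of age and 65.0% to 89.9% of newborn cells. No per-sample column was left out, and intervals and limits of a count of 0 (3 counts) cover counting error only.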

Additional observations from a re-analysis of the deposited data

Results flagged for a closer look

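Of 38 groups of 6 sorted libraries with a member's level, 4 had a library far from the other 5. Chance gives about 1 in 20 only for normally distributed values. Low and skewed counts need not follow that, so the 4 are not read as an excess. Sox10 stood at 6.57 CPM in mTEClo replicate 5 at 4 weeks, against a median of 0 in the others. Ngfr stood at 69.8 CPM in gp38+CD26+ replicate 3 at 4 weeks, against a median of 4.57. Fabp7 at 34.1 CPM and Nkain4 at 77.1 CPM stood apart in the same library, mTEC replicate 3 at 4 weeks, where the others had medians of 9.45 and 15.7. That library also had the fewest reads of the mTEC libraries, 5785352, and Foxd3 at 17.1 CPM, with Sox10 at 0.

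The change of Nkain4 with age differed between populations. It rose in gp38+CD26+, while its lower mean at 4 weeks in Ly51+gp38- was not called (edgeR adjusted p = 0.167). The difference of the 2 changes was 5.76 ± 1.01 on the log2 scale in a fit of 24 libraries (edgeR adjusted p = 0.00215, and 5.90 with 0.00119 without the shallow library). This contrast was chosen after the values were seen, and 375 of 13732 genes were called in it.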

How the results depend on the processing

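Of 142 alternative values of results that answer a comparison, 17 moved the number of members called. Of Sox10, Foxd3, Erbb3 and Fabp7, the 4 genes whose test over age in NCC is reported, the number called, 1, became 2 with no filter on low counts, with only libraries of at least 20 NCC and with the replicate block, and ran from 1 to 2 when single libraries were left out (without E16.5 replicate 1), and that between later and early ages behaved likewise, 2 in these settings and from 1 to 2 (without 4 weeks replicate 2). The added gene was Foxd3. Between genotypes in Pr, 0 became 1 with no filter and with the replicate block (adjusted p = 0.0252), and ran from 0 to 1 (without wild-type replicate 1), through Fabp7. In Ly51+gp38- 2 became 1 with no filter and with the prefix term. In mTEC 0 became 1 with DESeq2, and between mTEChi and mTEClo 1 became 2 with no filter, DESeq2 and the prefix term. The cause of these changes was not tested.

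Signs turned for values that were not called: Sox10 between later and early NCC ran from -0.40 to 0.24 when single libraries were left out (0.24 without E12.5, 0.059 without E16.5 replicate 1 and 0.047 without 4 weeks replicate 1). Between genotypes over all cells, Sox10 ran from -0.066 to 0.80, Erbb3 from -0.20 to 0.49 and Nkain4 from -0.28 to 0.13 when single libraries were left out, with the sign turned without heterozygous replicate 3 (Erbb3 -0.086, Nkain4 0.13) or wild-type replicate 3 (Sox10 -0.066, Erbb3 -0.20, Nkain4 0.10). Erbb3 in Ly51+gp38- was -1.99 with the prefix term. Of 448 values for single members, 423 kept direction and side of the threshold.

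Whether replicate numbers pair the libraries could not be decided. Correlations of same-numbered deviations were -0.147 to 0.141 in the age series and -0.412 to 0.174 in the newborn series. They come from few pairs in groups of 2 or 3 libraries, and the newborn wild types were littermates, so pairing is not excluded.

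Counts over all genes moved by more than 1.5 times in some settings. Calls over age in NCC went from 910 to 1442 with no filter and to 238 of 2928 tested with E16.5, P0 and 4 weeks alone, and calls between later and early NCC from 1084 to 512 without E12.5 and 669 without E13.5. In Pr 7962 became 4244 and 4262 without either E16.5 library. Between genotypes, calls went from 0 to 19 (DESeq2) over all cells and to 2 without heterozygous replicate 2, from 0 to at most 5 in nTEC and 1 in NCC, and from 3 to 28 (no filter), 12 (block) and up to 63 (libraries left out) in Pr. With DESeq2, CD31+ went from 577 to 1120, gp38+CD26+ from 864 to 1725 (1641 without the shallow library) and mTEC from 952 to 1780, and mTEChi against mTEClo went from 2537 to 3809 with no filter. The 4-week NCC libraries, with 7 cells each, limit every late value.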
